A study of Mus musculus with 4 samples.

Results

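The surface of the uninjured heart was compared with the inside of its wall on 1 tissue section profiled by Visium spatial transcriptomics, in which poly-adenylated RNA is captured on a hexagonal grid of barcoded spots and counted as unique molecular identifiers (UMIs). A spot is a small area of tissue that can hold several cells of different types. Of 1175 spots that the authors marked as lying under tissue in the control section, 1166 had at least 500 UMIs and were kept, out of 5909 such spots in the 4 sections of the series. Spots with fewer than 6 marked neighbours on the grid were called surface (146 spots). Spots at least 2 grid steps from every surface spot were called inner wall (896 spots), and the 124 spots in between were called the next layer. The classes rest on the position of the spots alone, and no expression value entered them.

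The series compares healthy mouse hearts with hearts after myocardial infarction (MI), to follow how cardiac fibroblasts (CFs) change in the days after injury. It holds 1 control section, 1 section at 3 days post-infarction (dpi) and 2 sections at 5 dpi, each from a different heart. All mice carried the Collagen1a1-GFP reporter, in which regulatory sequence of a collagen gene drives GFP in collagen-producing cells. They were 8 to 12 weeks old, and MI was induced by permanent ligation of the left anterior descending coronary artery. The control mouse was healthy, labelled female, and had no infarct, and its fresh frozen heart was cut at 10 µm. With 1 control heart, no difference given here was tested across hearts, and no p-value is given. Intervals are 95% intervals of the counts and cover counting error only.

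The heart wall is layered. Its outer face, the epicardium, is covered by a thin sheet of mesothelial cells over loose connective tissue that carries vessels, nerves and lymphatics. The chambers are lined by endocardium, a specialised endothelium. Between them lies the myocardium, where cardiomyocytes of the outer and inner layers are known to differ in ion channels and in the natriuretic peptide Nppa, which in the adult ventricle is found mainly towards the chamber.

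The control section was solid on the array. Only 3 unmarked positions were enclosed by marked spots, so 137 of the 146 surface spots faced the outside, and 9 touched only enclosed positions. The deepest spot lay 15 steps from the surface. The marked area showed no open chamber, and a comparison of the outer with the chamber-facing surface was therefore not made. Cardiomyocyte RNA was present throughout: the 12 cardiomyocyte markers, such as Myh6 and Tnnt2, together made up a median of 8.16% of the non-mitochondrial UMIs of a surface spot (range 4.72 to 12.09%) and 8.42% of those of an inner spot (3.86 to 10.98%). The atrial genes Myl7, Sln and Bmp10 had 0 UMIs in each class, where a count of 0 allows up to 5.76 CPM at the surface and 1.11 CPM in the inner wall (CPM are UMIs per 1000000 non-mitochondrial UMIs of the class). The full atrial list of 6 genes had 94 UMIs at the surface and 1418 in the inner wall. Nppa gave 89 and 1342 of these, and the rest came from Myl4 and Stard10.

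Surface and inner wall had similar median depth, but depth varied more among surface spots. Surface spots had a median of 4910 UMIs and inner spots of 4793, with 10th percentiles of 1392.5 and 2548 UMIs and 90th percentiles of 10797 and 8101.5 UMIs. The surface sum was 520526 non-mitochondrial UMIs and the inner sum 2711472, so values at the surface are the less precise ones. Mitochondrially encoded genes took 37.5% of surface UMIs and 40.4% of inner UMIs. CPM leave mitochondrial UMIs out. The part of depth or of the mitochondrial share in the differences below was not tested. In a spot, fewer cells of a type and less RNA per cell cannot be told apart.

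**Figure D1:**
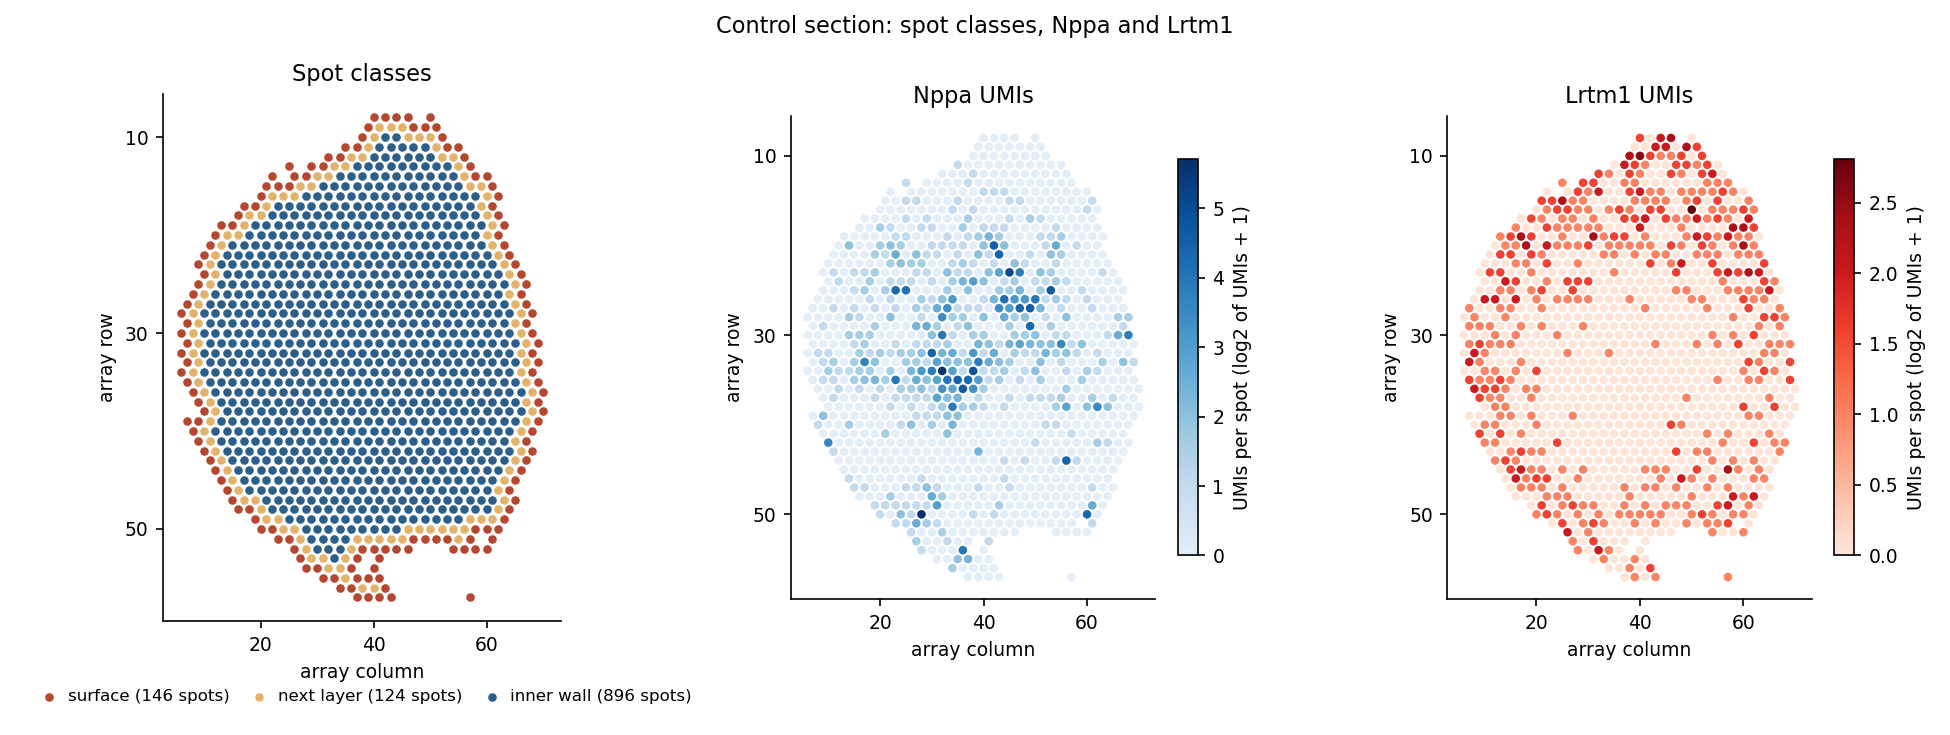
Maps of the 1166 kept spots of the control section by array column and row, with the 3 spot classes on the left and the UMIs per spot of Nppa (middle) and Lrtm1 (right) as log2 of UMIs + 1. Nppa UMIs gathered in patches of the inner wall, and Lrtm1 UMIs lay around the rim of the section and were sparse at its centre.

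Few genes separated the surface from the inner wall. A gene was compared when it reached 50 CPM in the higher class, and called when the classes were at least 1.5-fold apart over all spots and, in the same direction, on each side of the section, split at the median array column (a low-column and a high-column side). Of 2445 genes compared, 18 were called higher at the surface (0.736%) and 28 higher in the inner wall (1.15%). Over all spots alone, 41 and 71 genes were at least 1.5-fold apart. The calls depend on the settings: 9 and 8 genes were called with CPM over all UMIs, mitochondrial ones included, where the limit of 50 CPM also asks for more UMIs, and 0 and 1 at a limit of 2-fold. Of the 363 genes with at least 200 surface UMIs and as many expected at the inner level, 0 were, and their log2 ratios of surface over inner wall lay between -0.53 and 0.47. The called genes were of low abundance: those higher at the surface had a median of 31 surface UMIs, where 50 CPM correspond to 26.0 UMIs. Of the 18, 14 passed the 50 CPM limit at the surface only, and of the 28, 17 passed it in the inner wall only, so that these had to differ to be compared at all. The 2 sides gave the same sign for 57.9% of compared genes, and the log2 ratios of the sides correlated at r = 0.21 across genes, which are not independent replicates.

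**Figure D2:**
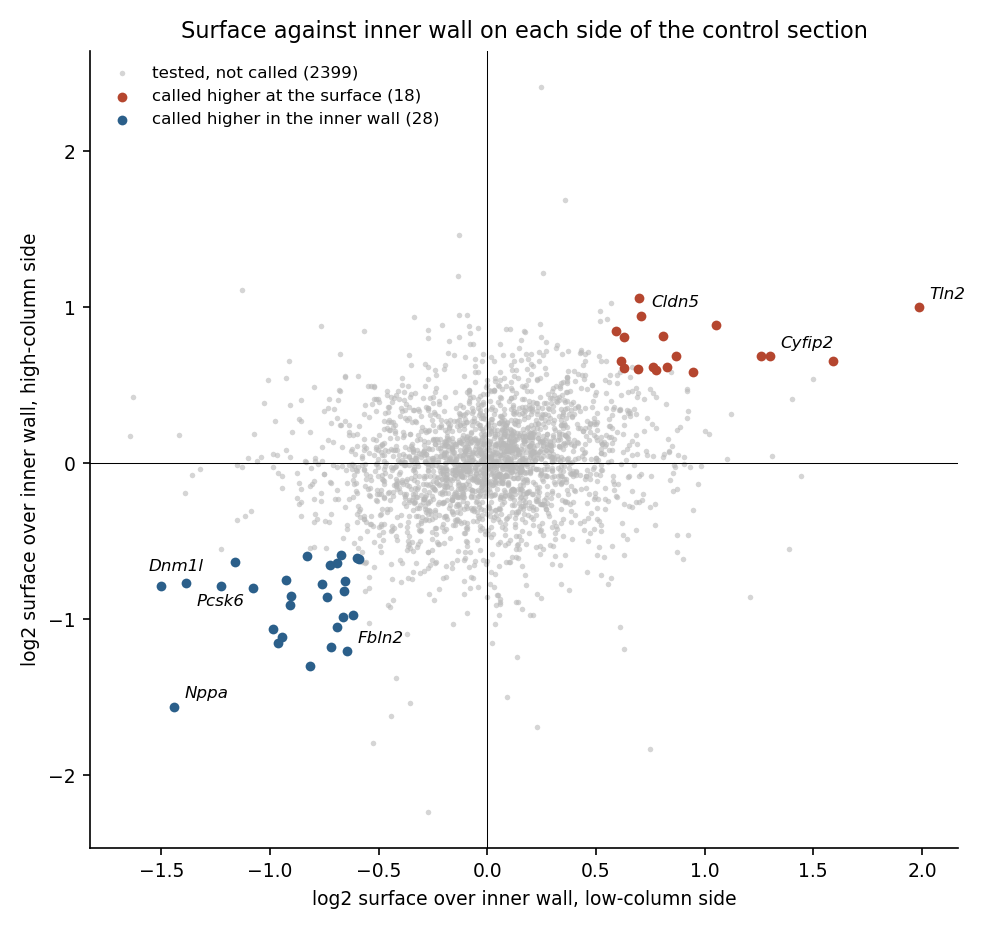
Log2 ratio of surface over inner wall CPM on the low-column side (x axis) and the high-column side (y axis) of the control section, 1 point per gene compared. The 18 genes called higher at the surface and the 28 called higher in the inner wall are coloured, and the other 2399 genes scatter around 0 with little relation between the sides.

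Of the 18 genes called higher at the surface, 0 were members of any of the 20 marker and 12 pathway lists. Most of the 2445 genes compared were in none of these lists either. The largest lists, of nuclear respiratory chain and ribosomal protein genes, held 75 and 72 of them. The count of 0 therefore does not show whether the 18 genes share a role. Tln2 (talin 2, which ties integrins to actin) stood at 59.6 CPM at the surface and 21.0 CPM in the inner wall, 2.83-fold higher (interval 1.77 to 4.46), with 79.0 against 20.1 CPM on the low-column side and 42.8 against 21.96 CPM on the other. Both surface values lay above both inner values, on 31 surface UMIs in 24 spots. Cyfip2, a subunit of the WAVE complex of actin assembly, was at 131 CPM at the surface, 86.3 CPM in the next layer and 66.0 CPM in the inner wall, 1.98-fold higher at the surface (1.47 to 2.63). It had the most UMIs at the surface, 68, of the 12 genes with the highest ratios.

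Cldn5, a tight junction protein of endothelium, was at 99.9 CPM at the surface and 59.4 CPM in the inner wall, a ratio of 1.68 (1.21 to 2.31). Its surface level was 121 CPM on the low-column side and 82.1 CPM on the high-column side, against 74.8 and 43.2 CPM in the inner wall of the same sides. The classes were apart on each side, but the surface of the high-column side was only slightly above the inner wall of the low-column side. Synpo (synaptopodin, an actin-binding protein) was at 59.6 against 35.8 CPM. Il15, a cytokine that sustains natural killer and memory T cells, was at 57.6 against 30.6 CPM, 1.88-fold higher (1.197 to 2.89). Btbd2, Tmem150a, Avpi1, Ubxn4, Xpo1, Gfer and Wdr83, the remaining genes of the 12, were 1.61- to 2.21-fold higher at the surface, at 51.9 to 65.3 CPM there. The other called genes were Mpnd, Dhrs7, Nt5m, Gstm2, Tex264 and Rarres2, of which Gstm2, a glutathione transferase, was at 173 against 111 CPM. None of the 18 reached a 2-fold difference on both sides.

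Nppa, the precursor of atrial natriuretic peptide, had the largest ratio of all called genes. It stood at 171 CPM at the surface (interval 137 to 210) and at 495 CPM in the inner wall, 2.89-fold higher inside (2.33 to 3.63). On the low-column side it was at 208 CPM at the surface and 571 CPM inside, and on the high-column side at 139 and 415 CPM, so that both surface values lay below both inner values. With 0.5 counts added to each class on each side, as in all calls, it was the only gene compared that was at least 2-fold apart over all spots and on both sides. In plain CPM, Thbd, Adgrl4 and Ahcyl1 were also at least 2-fold apart on both sides. The surface UMIs were unevenly spread: 10 spots held 80.9% of the 89 UMIs, and the 9 surface spots at enclosed positions held 38 of them, at 1223 CPM. The outer surface alone was at 104 CPM. A Nppa UMI was found in 18.5% of surface spots (exact binomial interval 12.6 to 25.8%) and in 41.5% of inner spots (38.3 to 44.8%).

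Fn1 (fibronectin) was at 25.0 CPM at the surface and 55.7 CPM in the inner wall, a 2.23-fold difference (1.27 to 4.28), and Fbln2 (fibulin 2) was at 67.2 against 130 CPM, a 1.94-fold difference (1.37 to 2.82). Both surface sides of Fbln2, 83.2 and 53.5 CPM, lay below its inner sides of 133 and 127.2 CPM. Of 10 genes of the matrix list compared, 2 were called higher inside (Fn1 and Col6a2, a collagen VI chain), where 1.15% of all genes were, and their median log2 ratio was -0.22 beside -0.01 for all genes. The list summed to 2325 against 2585 CPM, a ratio of 0.899 (0.845 to 0.956). Thbd (thrombomodulin) and Adgrl4, genes of the endothelial surface, were at 26.9 against 59.7 CPM and 25.0 against 54.6 CPM, on 14 and 13 surface UMIs. Cd34, a surface protein of endothelium and fibroblast progenitors, was at 73.0 against 139 CPM, and Aplnr, the apelin receptor, at 26.9 against 52.0 CPM.

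Pcsk6, a proprotein convertase, was at 38.4 CPM at the surface and 84.1 CPM in the inner wall, a 2.19-fold difference (1.38 to 3.65). Dnm1l, the dynamin-related GTPase of mitochondrial fission, was at 32.7 against 73.4 CPM, and Gys1, the muscle glycogen synthase, at 53.8 against 98.5 CPM. Ahcyl1, Wfdc17, Dnajb6, Cul3 and Mtarc2 completed the 12 genes with the lowest ratios, at 1.95- to 2.15-fold. Others of the 28 were Rxrg, Gsk3a, Rab12, Arpc5, Asb8, Tuba8, Dusp3, Tns1, Trak2 and Dcaf11, at 1.55- to 1.91-fold.

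Genes of high abundance differed little but with narrow intervals. Among the 363, the highest ratios were those of Hopx, Myl12a, Romo1, Ankrd1 and Mpc1. Myl12a, a regulatory light chain of nonmuscle and smooth muscle myosin, was at 1285 CPM at the surface and 929 CPM in the inner wall, 1.38-fold higher (1.27 to 1.51). Hopx, a homeodomain-only cofactor of cardiac transcription, was at 569 against 410 CPM (1.22 to 1.58), and Ankrd1, a stretch-responsive sarcomere protein, at 515 against 390 CPM (1.15 to 1.51). The lowest were Ifi27l2a, Gsn, Cd81, Dcn and Rpl4. Gsn (gelsolin, abundant in CFs) was at 1358 against 1785 CPM, and Dcn (decorin, a proteoglycan of CFs) at 450 against 562 CPM, 1.31- and 1.25-fold higher inside. Each of the 10 genes kept its direction on both sides, which their choice by the ratio over the same spots favours. Of the 379 genes compared with at least 200 UMIs in each class, 68.1% had the same sign on both sides.

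Mesothelial RNA was scarce and more frequent at the surface: the 14 genes gave 30 UMIs there (57.6 CPM), 10 in the next layer (17.6 CPM) and 36 in the inner wall (13.3 CPM), a ratio of surface over inner wall of 4.34 (2.58 to 7.25). None of them reached 50 CPM, so 0 of 14 were compared. Of the 14, 6 genes (Upk3b, Upk1b, Msln, Muc16, Krt19 and Krt8) had UMIs at the surface and 0 in the inner wall, and were grouped for that reason. They had 18 UMIs at the surface and 6 in the next layer. Another 4 (Lrrn4, Krt18, Krt7 and Bnc1) had 0 UMIs in any class. Msln (mesothelin, a surface protein of mesothelium) had 9 UMIs at the surface, which is at least 15.6-fold higher than the 3 UMIs taken as the limit for a count of 0 over the inner wall. A Msln UMI was found in 8 of 146 surface spots, or 5.48% (2.40 to 10.5%), and in 0 of 896 inner spots, where 3 counts would be a share of 0.335% and the exact upper bound is 0.411%. The other 4 genes, Wt1, Aldh1a2, Gpm6a and Rspo1, gave all 36 inner UMIs and 12 of the surface UMIs. Among them Wt1, a transcription factor also found in endothelium, had 14 UMIs inside and 1 at the surface. The list was uneven around the section, at 104 CPM at the surface of the low-column side and 18 CPM at that of the high-column side, against 16 and 11 CPM inside, and 1 surface spot held 6 of the 30 UMIs.

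Markers of Schwann cells, neutrophils and lymphatic endothelium had ratios above 1 on few UMIs. The 7 Schwann cell genes gave 19 UMIs at the surface (36.5 CPM) and 39 in the inner wall (14.4 CPM), a ratio of 2.54 (1.39 to 4.50). The 4 neutrophil genes gave 16 and 40 UMIs, and their surface UMIs lay at 67 CPM on the low-column side and at 0 on the other. The direction of the neutrophil list turned in 3 of 13 alternative settings, among them rim against core (20.2 against 23.5 CPM). The lymphatic list was at 136 against 93.7 CPM, a ratio of 1.46 (1.10 to 1.90), and most of its surface UMIs, 48 of 71, were those of Ccl21a, a chemokine of lymphatic vessels with near-identical gene copies to which reads cannot be assigned with certainty. The endocardial list was at 117 against 83.7 CPM (ratio 1.40, 1.04 to 1.86), of which Vwf (von Willebrand factor, of endocardium and veins) gave 34 of 61 surface UMIs. Vwf was at 33.3 against 29.5 CPM on the low-column side and at 92.8 against 17.4 CPM on the high-column side, and it stood at 290 CPM in the 9 surface spots at enclosed positions and 51.1 CPM at the outer surface. It was not called. The direction of the endocardial list turned between sides, at 70.7 against 90.6 CPM on the low-column side and 157 against 76.5 CPM on the high-column side, and the list was at 91.9 CPM at the outer surface alone.

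Marker lists of CFs, macrophages, mural cells and capillaries summed to more inside. The 11 fibroblast genes were at 2657 CPM at the surface and 3384 CPM in the inner wall, a ratio of 0.785 (0.741 to 0.831), with 2608 against 3552 and 2699 against 3207 CPM on the low- and high-column sides. Of 9 compared, 8 were lower at the surface on both sides and 1, Lum (lumican), was called, where 1.15% of all genes were called higher inside, and the median log2 ratio of the 9 was -0.35, beside -0.01 for all 2445 genes compared, of which 684 were lower at the surface on both sides. Col1a2 (a collagen I chain) was the exception, at 159 against 130 CPM. The GFP reporter of collagen-producing cells was at 682 CPM at the surface and 725 CPM in the inner wall, a ratio with an interval of 0.84 to 1.05. Macrophage genes were at 811 against 1066 CPM (0.760, 0.685 to 0.842), with C1qa, C1qb, C1qc and Lyz2, the 4 compared, lower at the surface on both sides and 0 called. Pericyte genes were at 638 against 742 CPM, smooth muscle genes at 302 against 426 CPM, and capillary genes at 4447 against 4831 CPM (0.921, 0.881 to 0.962).

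**Figure D3:**
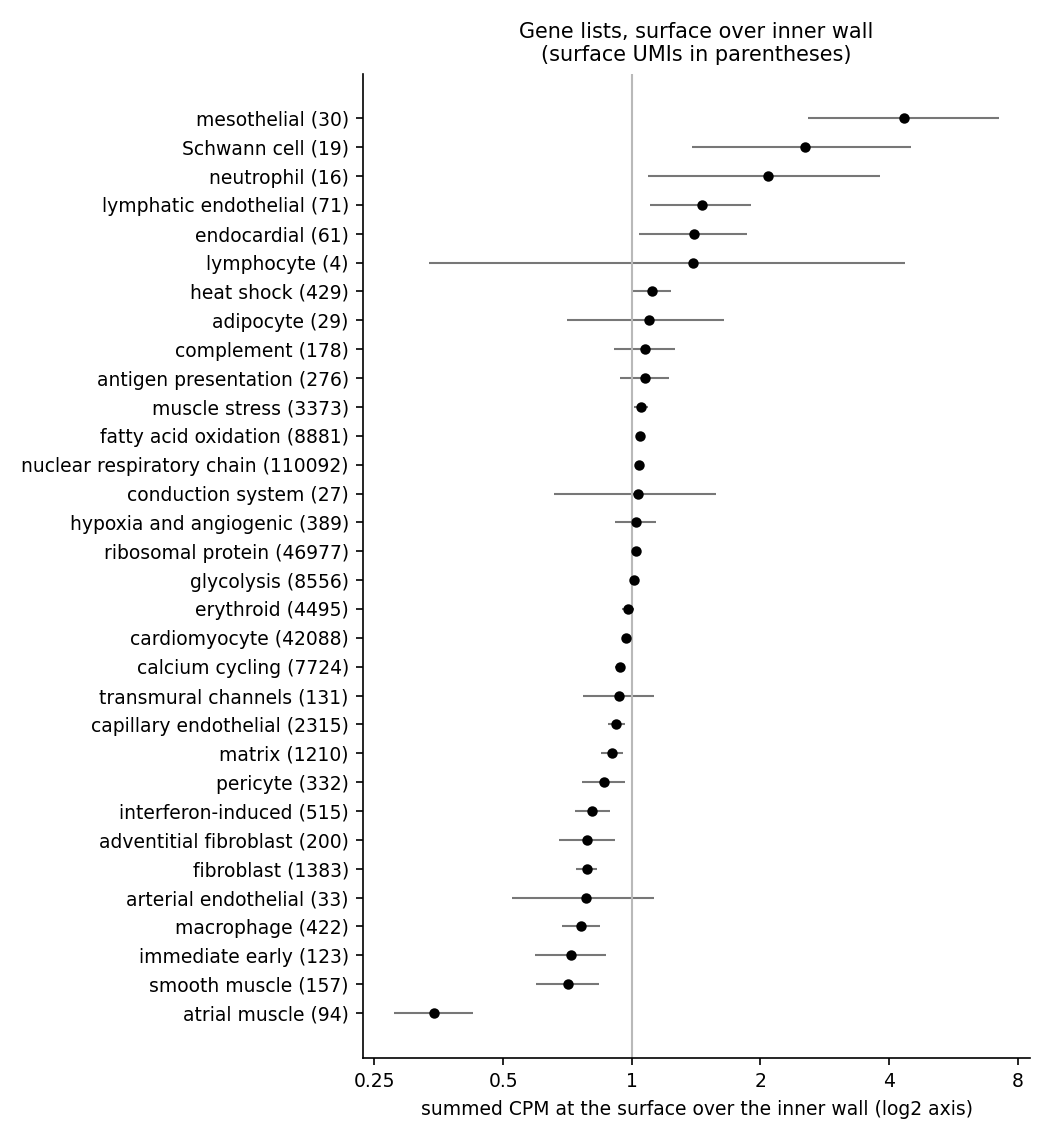
Summed CPM of each of the 32 gene lists at the surface over the inner wall, on a log2 axis, with the 95% interval of the ratio (counting error only) and the surface UMIs in parentheses. Mesothelial genes had the highest ratio, 4.34, the atrial list, whose UMIs are nearly all Nppa, the lowest, and the muscle, respiratory chain and ribosomal lists lay close to 1.

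Lists of working muscle genes had ratios near 1. The 12 cardiomyocyte markers summed to 80857 CPM at the surface and 83589 CPM in the inner wall, a ratio of 0.967 (0.957 to 0.977), with 0 of 12 called. Calcium cycling genes, such as Atp2a2, the calcium pump of the sarcoplasmic reticulum, were at 14839 against 15822 CPM with 0 of 9 called. Fatty acid oxidation, glycolysis and nuclear-encoded respiratory chain genes had ratios of 1.05, 1.01 and 1.04, and 0 of their 13, 12 and 75 compared genes were called. Of the 75 respiratory chain genes, 53 were above the inner wall level at the surface, 45 of them on both sides, with a median log2 ratio of 0.07. Of all 2445 genes compared, 1193 were, 729 of them on both sides. Ribosomal protein genes had a ratio of 1.02 and 0 of 72 called. Since 0.736% and 1.15% of all genes were called in the 2 directions, 0 calls in lists of these sizes is near the background and is no sign that the genes were level. Immediate early genes were at 236 against 327 CPM, and their 3 compared members, Jun, Jund and Dusp1, were lower at the surface on both sides without being called, beside 684 of all 2445 genes.

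Acta1, the skeletal muscle actin that is re-expressed in the stressed ventricle, had the highest ratio of the 10 genes of the muscle stress list. It was at 486 CPM at the surface (428 to 550) and 228 CPM in the inner wall (210 to 246), 2.14-fold higher. The surface of the low-column side was at 716 CPM and that of the high-column side at 289 CPM, against 254 and 200 CPM inside. Acta1 was not called, because its log2 ratio was 1.498 on the low-column side but 0.54 on the other, under the limit. Its level was lower in each deeper band: 486 CPM at the surface, 419 CPM in the next layer, 313 CPM at 2 to 3 steps, 223 CPM at 4 to 6, 210 CPM at 7 to 9 and 104.8 CPM at 10 to 15 steps. Of the 10 genes, 4 were higher at the surface, the median log2 ratio was -0.05, and Nppa was called higher inside. Nppb was at 188 against 230 CPM and Clu at 446 against 539 CPM.

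The inner wall is not uniform, and depth was therefore followed in 6 bands of 146, 124, 220, 271, 205 and 200 spots from the surface to 10 to 15 steps. These bands were chosen after the data were seen, and their median UMIs per spot were 4910, 7752, 6191, 5050, 4612 and 3576. Nppa was at 171, 81.0, 135, 248, 634 and 1424 CPM along them, highest at the centre. The order of the outer bands is uncertain: 1 spot held 51 of the 112 UMIs at 2 to 3 steps, and on the high-column side that band was at 46.5 CPM, under the 61.0 CPM of the next layer. In the deepest band 66.0% of spots held a Nppa UMI, against 19.4% in the next layer. The sides differed in shape. On the low-column side Nppa was at 388 CPM at 7 to 9 steps and 1722 CPM at 10 to 15, and on the high-column side it was already at 910 CPM at 7 to 9 steps and at 1009 CPM in the deepest band.

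Of the other cell type lists, some were also highest in the deepest band, and others were lower there than at 7 to 9 steps. Macrophage genes were at 1181 CPM at 7 to 9 steps and 997 CPM in the deepest band. Smooth muscle genes were at 446 and 334 CPM, pericyte genes at 830 and 729 CPM and capillary genes at 4995 and 4645 CPM. The conduction system list was at 77.9 and 83.4 CPM. The endocardial list was at 117, 73.9, 62.7, 55.6, 38.0 and 227 CPM over the bands, with Cytl1 (an endocardial secreted protein) at 79.1 CPM in the deepest and at 11.6 CPM or less in the others. Vwf was high at both ends, at 65.3 CPM on the surface, 9.06 CPM at 7 to 9 steps and 59.9 CPM at 10 to 15 steps. Fibroblast genes were at 2250 CPM in the next layer and 4654 CPM at the centre, where Gsn reached 2834 CPM, and haemoglobin and other erythroid genes were at 7403 CPM at 7 to 9 steps and 13528 CPM in the deepest band. C3, the central complement component, was at 104.8 CPM there, against 36.2 CPM at 7 to 9 steps. Their part in the level of Nppa was not tested.

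**Figure D4:**
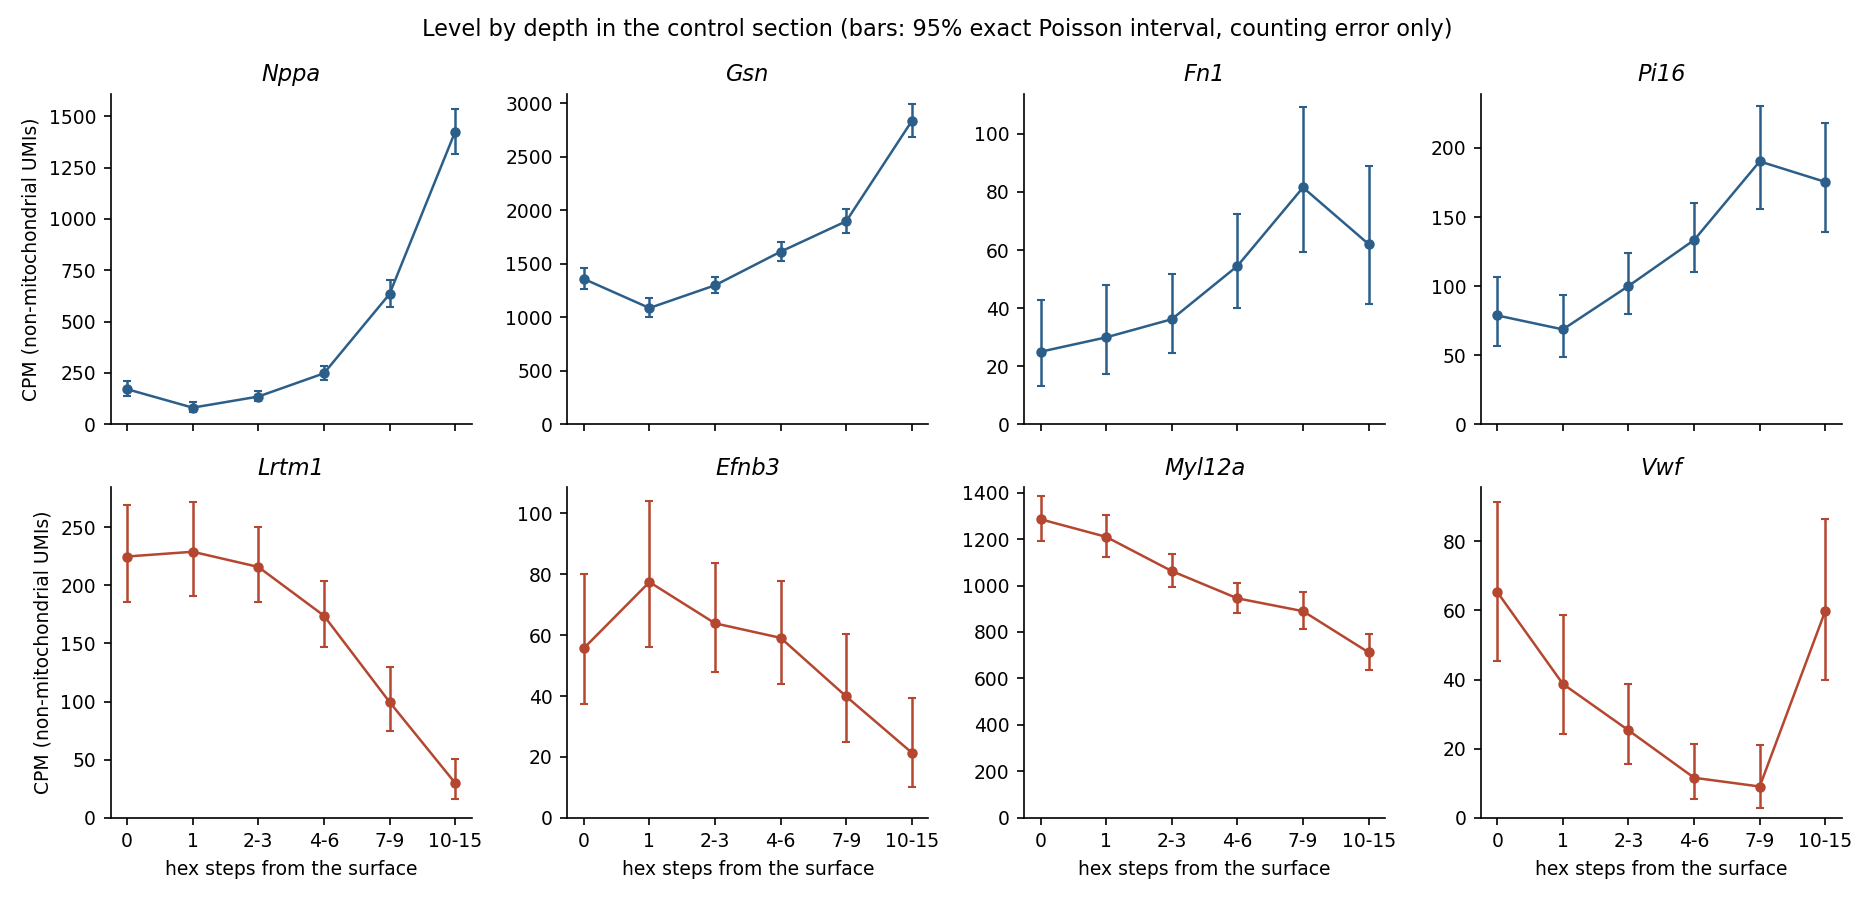
CPM of 8 genes over the 6 depth bands of the control section, from the surface (0 steps) to 10 to 15 steps, with 95% exact Poisson intervals (counting error only). Nppa, Gsn, Fn1 and Pi16 were higher towards the centre, Lrtm1, Efnb3 and Myl12a lower, and Vwf was high at the surface and again in the deepest band.

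To describe this gradient across genes, the outer 2 layers (0 to 1 step, 270 spots) were set against the core (7 steps or more, 405 spots) with the same limits. Of 2467 genes compared, 14 were called higher in the rim (0.567%) and 46 higher in the core (1.86%). Between this comparison and the first, 1 gene was called higher outside in both (Dhrs7, 5.56% of the 18 and 7.14% of the 14), and 9 were called higher inside in both (Cd34, Cul3, Fbln2, Fn1, Lum, Nppa, Pcsk6, Thbd and Wfdc17, 32.1% of the 28 and 19.6% of the 46). The 2 comparisons share spots, so these overlaps do not stand as separate evidence.

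Lrtm1, a leucine-rich repeat membrane protein of striated muscle, had the second highest ratio in the rim, after Ccl21a. It was at 227 CPM in the rim and 67.7 CPM in the core, 3.35-fold higher (2.56 to 4.44), with 236 against 51.4 CPM on the low-column side and 218 against 87.8 CPM on the high-column side. Over the bands it was at 225, 229, 216, 174, 99.7 and 29.9 CPM, level from the surface to 3 steps and lower farther in. Against the whole inner wall it was at 225 against 147 CPM and was not called. Kcnd2, the potassium channel subunit of the transient outward current with known transmural differences, was at 21.1, 24.6, 22.9, 8.12, 12.7 and 2.14 CPM over the bands, on 11, 14, 19, 7, 7 and 1 UMIs, and did not reach 50 CPM. Its partner Kcnip2 was level, at 138 CPM in the rim and 133 CPM in the core. Irx5, a transcription factor that represses Kcnd2, had 0 UMIs at the surface and 7 in the deepest band, and a link between them was not tested. The transmural channels list of 8 genes, which holds these members, showed no such gradient. It summed to 252 CPM at the surface and 269 CPM in the inner wall, a ratio of 0.935 (0.770 to 1.13). Over the bands it was at 252, 224, 262, 275, 252 and 293 CPM.

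Values of 6 more of the 14 genes called higher in the rim follow. Isca2 (iron-sulfur cluster assembly) was at 107 against 53.0 CPM, Mtx2 (metaxin 2 of the outer mitochondrial membrane) at 126.8 against 68.7 CPM, Ethe1 (a mitochondrial sulfur dioxygenase) at 77.2 against 40.2 CPM and Nudt7 (a peroxisomal hydrolase) at 77.2 against 45.1 CPM. Vldlr, the receptor of very low density lipoproteins, was at 136 against 69.6 CPM, and Efnb3, a membrane-bound ephrin, at 67.1 against 31.4 CPM. The nuclear respiratory chain list was at 212092 against 197198 CPM, with 64 of 75 compared genes above the core level in the rim, beside 1142 of all 2467, and 0 called. Ccl21a was at 58.8 against 12.8 CPM, and its 13 core UMIs lay in 6 spots.

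Fibroblast genes were higher in the core. Of 9 fibroblast genes compared, 9 were higher in the core and 3 were called (Gsn, Lum and Htra3), with a median log2 ratio of rim over core of -0.52 beside -0.02 for all genes, of which 1142 of 2467 were higher in the rim. Of 4 adventitial fibroblast genes, 3 were called (Pi16, Clec3b and Mfap5), where 1.86% of all genes were called higher in the core. Pi16, a marker of adventitial CFs, was at 73.5 CPM in the rim and 183 CPM in the core, a 2.5-fold difference (1.91 to 3.29), with 108 against 195 CPM and 41.2 against 169 CPM on the sides. Fn1 was at 27.6 against 72.6 CPM and Fbln2 at 64.3 against 143 CPM. Myl1, a light chain of fast skeletal muscle myosin, was at 30.3 against 78.5 CPM. Nppa itself was at 124 against 997 CPM, 8.04-fold higher in the core (6.71 to 9.69). Median UMIs per spot were 6244 in the rim and 4016 in the core.

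The same rule was applied to the 3 infarcted hearts, using only spots more than 4 steps from the infarct zone, which left 47, 36 and 113 surface spots and 320, 171 and 366 inner spots in the 3 dpi, the female-labelled 5 dpi and the male-labelled 5 dpi heart. Surface spots were shallower than inner ones in each, with medians of 2489 against 5152.5, 2867 against 6961 and 5727 against 5908 UMIs, and at 3 dpi mitochondrial genes took 25.5% of surface and 39.4% of inner UMIs. The infarct zone was set as connected patches of at least 10 spots with less than 0.5 times the section's 90th percentile of cardiomyocyte RNA. These hearts are injured and are no replicates of the control. In the 2 sections at 5 dpi the sex labels were opposite to the 4 Y-linked genes, with 718 UMIs where the label was female and 1 where it was male, so they are named by their labels only. In the male-labelled section 51 of the 113 surface spots faced the outside, 623 spots with counts lay off the marked area, and its marked edge is thus not everywhere the edge of the tissue. At 3 dpi 72 marked spots with under 500 UMIs were left out.

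Of the 12 genes with the highest surface ratio in the control, 1 was higher at the surface in all 3 infarcted sections, Avpi1, where 12.7% of all genes compared were. Avpi1 was at 58.4 against 29.9 CPM, 37.2 against 28.2 CPM and 43.9 against 32.7 CPM, on 8, 4 and 23 surface UMIs. Of the 12 genes with the lowest ratio, 3 were higher in the inner wall in all 3, Adgrl4, Cul3 and Mtarc2, where 18.6% of all genes were. The shares 1 of 12 and 3 of 12 are near these backgrounds. Nppa was at 5752 against 4851 CPM at 3 dpi, 5592 against 7015 CPM in the female-labelled and 13263 against 4446 CPM in the male-labelled 5 dpi section. With outer surface spots only, it was at 4099 CPM at the surface of the female-labelled section and 2609 CPM at that of the male-labelled section, against the same inner values, so the direction in the latter turned with the choice of surface spots.

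**Figure D5:**
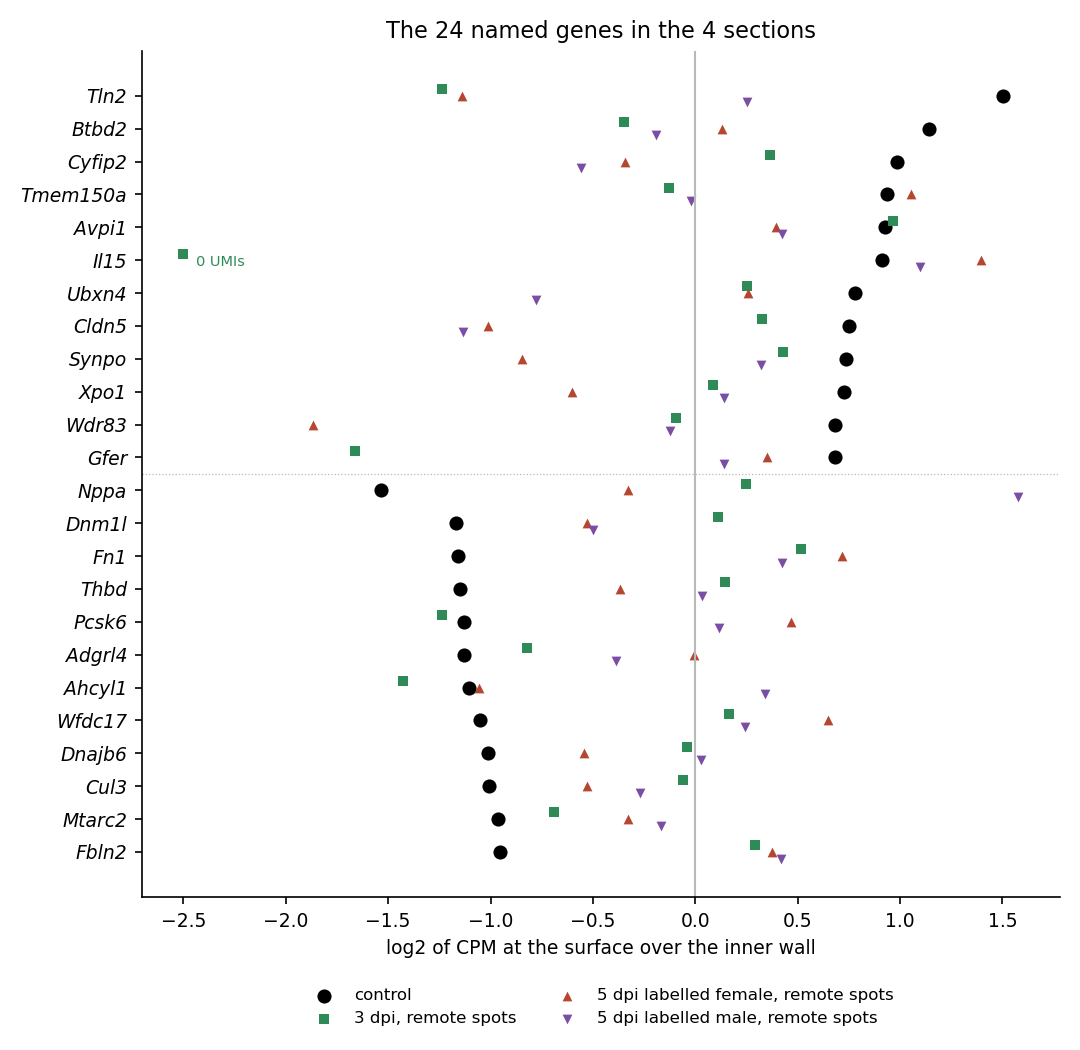
Log2 of CPM at the surface over the inner wall for the 24 named genes (12 highest above the dotted line, 12 lowest under it) in the control (black) and in remote spots of the 3 infarcted sections. The control points lie apart from 0 because they chose the genes, and the infarcted sections scatter on both sides of 0, with Il15 drawn at the edge at 3 dpi because it had 0 surface UMIs.

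Of the 32 lists, 7 summed to more at the surface in all 3 infarcted sections. The mesothelial, lymphatic, complement and ribosomal lists, 4 of these 7, did so in the control as well. This share is near that of all lists, since 17 of the 32 were higher at the surface in the control. The control ratio of the complement list was 1.07 (0.909 to 1.26), and it was at 288 CPM in the rim and 402 CPM in the core. The ribosomal list kept its direction in 12 of 13 alternative settings. The mesothelial list was at 57.6 against 13.3 CPM in the control, 94.9 against 40.7 CPM at 3 dpi, and 214 against 43.8 CPM and 107 against 63.0 CPM at 5 dpi (female- and then male-labelled). At 3 dpi the surface UMIs of the mesothelial list were 12 of Aldh1a2 and 1 of Wt1, both also present in the control's inner wall, and the other genes of the list had 0. Msln had 3 and 6 surface UMIs at 5 dpi. The lymphatic list was at 136 against 93.7 CPM in the control and at 139 against 74.2, 158 against 100.3 and 116 against 51.1 CPM in the infarcted sections. The fibroblast list was lower at the surface in the control, at 2657 against 3384 CPM, and higher at the surface in all 3 infarcted sections, at 6131 against 4322, 7032 against 4621 and 4663 against 3241 CPM. The GFP reporter was at 682 against 725 CPM in the control, with 566 against 695 CPM on the low-column and 782 against 756 CPM on the high-column side and an interval of the ratio that includes 1, and at 1358 against 864, 2322 against 1727 and 2751 against 2468 CPM after MI. These differences between the control and the infarcted hearts were not tested.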

How the data were processed

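Visium libraries of 4 mouse heart sections were sequenced by the authors. Per the labels and the study's methods, reads were aligned and counted with Space Ranger against an Ensembl-based mouse reference to which the GFP sequence was added, and the spots under tissue were picked by hand. The deposited files hold unnormalized UMI counts of 21885 genes in each spot. Here, spots with at least 500 UMIs were classed by their distance on the array, UMIs were summed per class, and CPM were taken over all genes but the 13 mitochondrial ones. For the ratio on each side of the section, 0.5 counts were added to each class.

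A gene was compared at 50 CPM or more in the higher class and called at 1.5-fold over all spots and on each side of the median array column (39). The text names the 12 largest ratios in each direction among called genes, list members at 50 CPM or more, and the 5 highest and 5 lowest ratios among genes with at least 200 UMIs. Other called genes are named with fewer values. Some called genes are not reported here. With 1 control section no test across hearts was possible, and the 2 sides share 1 section. Spots are not replicates. Intervals are exact (Poisson for levels, Clopper-Pearson for shares and, on the split of UMIs, for ratios), at 95%, and cover counting error only. UMIs of neighbouring spots are not independent. The members and gene lists were chosen with earlier results of these data known. The calls were checked on simulated data. Alternatives were the CPM total, the limits, the spot classes, the split of the section and the spot filters. The work was done in Python 3.11.15 with pandas 2.3.3, NumPy 2.4.6, SciPy 1.17.1 and matplotlib 3.10.9.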

Additional observations from a re-analysis of the deposited data

Results flagged for a closer look

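For 4 of the 24 named genes, the control lay one way and all 3 infarcted hearts the other, 1 of the 12 higher at the surface in the control and 3 of the 12 higher inside. Of all genes compared, 18.6% were higher in the inner wall and 12.7% higher at the surface in all 3 infarcted hearts, so a count of 4 is near the background and only the values are given. The difference between the hearts was not tested, and each value is a log2 ratio of surface over inner wall. Wdr83 was at 0.68 in the control and was lower at the surface at 3 dpi (36.5 against 38.9 CPM) and in the female-labelled (9.29 against 33.9 CPM) and male-labelled (38.2 against 41.6 CPM) 5 dpi sections, on 5, 1 and 20 surface UMIs. Fn1 was at -1.16 in the control on 13 surface UMIs and was higher at the surface after MI, at 409 against 286, 548 against 333 and 437 against 326 CPM. Wfdc17 was at -1.05 in the control and at 197 against 176, 279 against 178 and 259.5 against 219 CPM after MI. Fbln2 was at -0.95 in the control and at 299 against 244, 427 against 329 and 357 against 267 CPM after MI. Surface spots at 3 dpi and in the female-labelled 5 dpi section had fewer than 0.5 times the UMIs of inner spots, and their part in these values was not tested.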

How the results depend on the processing

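The counts of called genes, 18 higher at the surface and 28 higher in the inner wall, depended on the settings. They were 9 and 8 with CPM over all UMIs, mitochondrial ones included (the limit of 50 CPM then asks for more UMIs, and the 2 changes cannot be told apart), 132 and 128 with a limit of 20 CPM, and 0 and 1 with a limit of 2-fold. Surface-higher genes numbered 39 with the mean of per-spot CPM, 44 with surface spots of at most 4 neighbours, and 28 with surface spots that had an inner spot exactly 2 steps away. The inner-higher count was 46 for rim against core. The genes named in the control that lay the same way in all 3 infarcted hearts numbered 4, and 2 with outer surface spots only. The cause was not tested. Of 35 counts under an alternative, 24 stayed within 1.5 times the main count. Of 312 ratios of named genes, which were chosen for their direction, 0 changed sign and 7 lay outside the interval of the main ratio. The log2 ratio of Tln2 ran from 0.68 to 1.58, that of Adgrl4 from -1.39 to -0.19 and that of Dnm1l from -1.46 to -0.38. Of the 32 lists, 12 changed sign in at least 1 of 13 settings, the conduction list in 4 and the neutrophil list in 3. Few surface calls were shared with some settings: 4 of 18 with CPM over all UMIs, 7 with alternate columns as the sides, and 9 with the mean of per-spot CPM, and 8, 19 and 18 of the 28 inner calls. Splitting by rows gave 19 and 27 calls, of which 11 and 18 were shared with the column split, and the outer surface alone gave 18 and 31, sharing 10 and 26. Over 13 settings the log2 ratio of the mesothelial list ran from 1.75 to 2.38, that of the fibroblast list from -0.74 to -0.20, that of Nppa from -3.01 to -1.46, and that of the endocardial list from -0.40 to 0.82. The rim and core classes, the outer surface alone and the limit of 2000 UMIs per spot were chosen after seeing the data. The outer against the chamber-facing surface was not run, since 9 spots lay at enclosed positions and 30 were required. Surface depth limits genes under about 26.0 surface UMIs, which were not compared unless higher inside. No paired analysis was possible because the series holds 1 control section.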
